A study of Mus musculus with 24 samples.

Results

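Isolate pair 4 sets embryoid bodies from clone 4_1, which is Gcn5fx/fx, against embryoid bodies from clone 4_C2, which is Gcn5-/-. Histone H3 acetylated at lysine 9 (H3K9ac) was mapped in both by chromatin immunoprecipitation and sequencing, with 2 replicates of each clone. Overlapping peaks of these 4 lists (1 bp or more) were joined, which gave 17757 regions, where the 8 H3K9ac lists of the whole series give 26034. A region is called lost here when both 4_1 lists and neither 4_C2 list held a peak in it, and gained in the reverse case. By that rule 497 regions were lost and 160 gained, and 10367 were held by all 4 lists.

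The series holds 24 samples from 2 such isolate pairs: H3K9ac, total H3 and input DNA. All cells were mouse embryonic stem cells of strain C57BL/6, grown as embryoid bodies, the aggregates in which stem cells start to differentiate, and collected at day 5. The antibody was Millipore 07-352. Pair 6 (clones 6_1, Gcn5fx/fx, and 6_C4, Gcn5-/-) has the same layout, shares no sample with pair 4 and is used below only for comparison. Each genotype of pair 4 is 1 clone, so genotype and clone cannot be told apart within it. The replicates are described as independent experiments without separate cultures being named, so p-values measure only the spread between these libraries, which may be technical. No source used here says how the floxed allele was deleted or which exons were removed.

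Gcn5, the product of Kat2a, is the catalytic subunit of the SAGA and ATAC coactivator complexes and acetylates lysines of histone H3, lysine 9 among them. Its close relative Pcaf, the product of Kat2b, can act on the same residue. H3K9ac is found mainly at the start sites of active genes, and the study asked how its distribution over the genome changes when Gcn5 is lost as differentiation begins.

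The deposited lists hold the chromosome, start and end of each peak on mm10 and no height, so the measurements are whether a peak was called and how many base pairs it covered. Acetylation within a peak was not measured. In a bulk sample, fewer cells with a mark and less mark per cell cannot be told apart. A gene had a promoter peak in a list when a peak lay within 1000 bp of its RefSeq start site, or of either annotated end where no start site was given. The gene table gives spans and start sites without exons or untranslated regions, so positions inside genes are not divided further.

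To show promoter DNA of genes whose peaks were lost, the 250 bases before the start site are printed for 4 genes that had a promoter peak in both 4_1 lists and in neither 4_C2 list, on the gene's own strand (RefSeq, GRCm38.p6). Grb10 (chr11:12037421-12037670, minus strand) and Sp8 (chr12:118847309-118847558, plus strand) are among the 3 lost genes with the longest covered regions. Tbx6 (chr7:126781233-126781482, plus strand) and Eomes (chr9:118477939-118478188, plus strand) are the mesoderm regulators discussed with the developmental lists below. All 250 bases lie in the lost region at Grb10, Sp8 and Tbx6, but at Eomes only the last 33 do, since its region begins there. Capitals mark matches to 4 motifs searched on both strands: the E-box CACGTG, the GC box GGGCGG, the CCAAT box CCAAT and the TATA box TATAAA.
Grb10: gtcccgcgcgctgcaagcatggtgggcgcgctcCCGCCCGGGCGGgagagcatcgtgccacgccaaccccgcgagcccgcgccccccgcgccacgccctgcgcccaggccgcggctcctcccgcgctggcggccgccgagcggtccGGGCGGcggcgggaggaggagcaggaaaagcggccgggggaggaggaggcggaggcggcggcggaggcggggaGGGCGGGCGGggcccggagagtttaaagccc
Sp8: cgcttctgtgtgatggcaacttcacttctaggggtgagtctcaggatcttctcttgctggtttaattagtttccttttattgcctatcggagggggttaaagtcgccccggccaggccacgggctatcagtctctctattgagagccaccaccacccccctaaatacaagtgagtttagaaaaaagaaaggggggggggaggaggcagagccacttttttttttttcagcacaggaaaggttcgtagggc
Tbx6: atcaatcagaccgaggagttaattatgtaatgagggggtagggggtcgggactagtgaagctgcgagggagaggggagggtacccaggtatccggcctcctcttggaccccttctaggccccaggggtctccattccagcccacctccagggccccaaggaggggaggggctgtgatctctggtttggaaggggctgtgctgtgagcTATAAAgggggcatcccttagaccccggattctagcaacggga
Eomes: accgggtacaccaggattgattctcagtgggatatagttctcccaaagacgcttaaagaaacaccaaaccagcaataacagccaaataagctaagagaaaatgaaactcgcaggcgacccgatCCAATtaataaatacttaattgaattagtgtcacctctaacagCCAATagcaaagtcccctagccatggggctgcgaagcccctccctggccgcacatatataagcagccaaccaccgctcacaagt

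For contrast, 4 genes are shown that had a promoter peak in both 4_C2 lists and in neither 4_1 list. They are Tex19.1 (chr11:121145893-121146142, plus strand), Cldn3 (chr5:134985964-134986213, plus strand), Hif3a (chr7:17062428-17062677, minus strand) and Acp5 (chr9:22131866-22132115, minus strand).
Tex19.1: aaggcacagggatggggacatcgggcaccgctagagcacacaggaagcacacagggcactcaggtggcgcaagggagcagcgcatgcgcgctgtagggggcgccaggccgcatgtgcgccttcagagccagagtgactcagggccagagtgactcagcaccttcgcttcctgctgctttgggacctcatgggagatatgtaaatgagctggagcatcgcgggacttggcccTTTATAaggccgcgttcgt
Cldn3: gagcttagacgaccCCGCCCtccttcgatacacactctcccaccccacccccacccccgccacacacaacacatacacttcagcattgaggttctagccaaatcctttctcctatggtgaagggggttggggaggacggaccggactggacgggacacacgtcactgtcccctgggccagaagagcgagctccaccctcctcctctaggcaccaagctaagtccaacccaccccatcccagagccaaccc
Hif3a: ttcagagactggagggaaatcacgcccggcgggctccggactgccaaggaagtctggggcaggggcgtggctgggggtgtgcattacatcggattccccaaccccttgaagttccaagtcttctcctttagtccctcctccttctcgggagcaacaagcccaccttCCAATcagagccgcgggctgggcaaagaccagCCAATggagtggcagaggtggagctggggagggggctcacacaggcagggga
Acp5: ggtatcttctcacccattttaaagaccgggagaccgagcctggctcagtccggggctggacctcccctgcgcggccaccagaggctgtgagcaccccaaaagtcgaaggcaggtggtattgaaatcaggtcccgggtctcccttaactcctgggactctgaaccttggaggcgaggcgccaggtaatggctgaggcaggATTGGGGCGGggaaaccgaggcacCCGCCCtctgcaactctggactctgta

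The other 7 stretches held between 6 and 15 CpG dinucleotides, and that of Grb10 held 40. Grb10 also carried 5 GC box matches, some of them overlapping, where Cldn3 had 1, Acp5 had 2 and the other 5 had none. A CCAAT box was matched 2 times at Eomes, both before its lost region, 2 times at Hif3a and 1 time at Acp5, where it overlaps a GC box. Tbx6 and Tex19.1 each held 1 TATA box, and none of the 8 stretches held the E-box. Over all 21263 RefSeq promoters of 300 bases, the E-box was present in 7.84%, the GC box in 46.2%, the CCAAT box in 38.2% and the TATA box in 12.6%. A match is a description of the letters and no evidence of a bound factor. RefSeq gave a sequence for 192 of 250 lost genes (76.8%) and 33 of 58 gained genes (56.9%), so a comparison of base composition between those sets is void.

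The 2 replicates within a clone differed more in peak number than the means of the clones did (14287.5 in 4_1 and 13494 in 4_C2, n = 2 each). The 4_1 lists held 15315 and 13260 peaks, and the 4_C2 lists 14947 and 12041. These peaks covered 31.5 and 26.7 Mb in 4_1 and 30.2 and 21.8 Mb in 4_C2, with median widths of 1847 and 1814 bp against 1822 and 1639 bp. Promoter peaks were found at 12350 and 11524 genes in 4_1 and at 11950 and 10611 genes in 4_C2. Replicate 2 of 4_C2 was the lowest of the 4 libraries in each of these measures, and replicate 1 of 4_C2 lay between the 4_1 libraries in peak number, covered length, median width and genes with a promoter peak. The differences in peak number, covered length and median width each had a two-sided exact permutation p of 0.667, and 0.333 is the smallest p that 2 libraries against 2 allow. The lists of pair 6 were longer, at 17849 to 20809 peaks. Sequencing depth is unknown for every list.

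Most regions were shared. All 4 lists held 58.4% of the 17757 regions, and these shared regions lay mostly at promoters (88.9%). The Jaccard index of 2 lists, the regions held by both over those held by either, was 0.779 between the 4_1 replicates, 0.714 between the 4_C2 replicates and 0.702 to 0.763 between clones. Of the regions held by 2 lists, the pattern with the most was presence in replicate 1 of each clone, with 818 regions. Regions held by replicate 1 of 4_C2 alone numbered 1550, and those held by replicate 1 of 4_1 alone 1531. In the plot of presence patterns, the lost and gained patterns are small beside these.

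**Figure D1:**
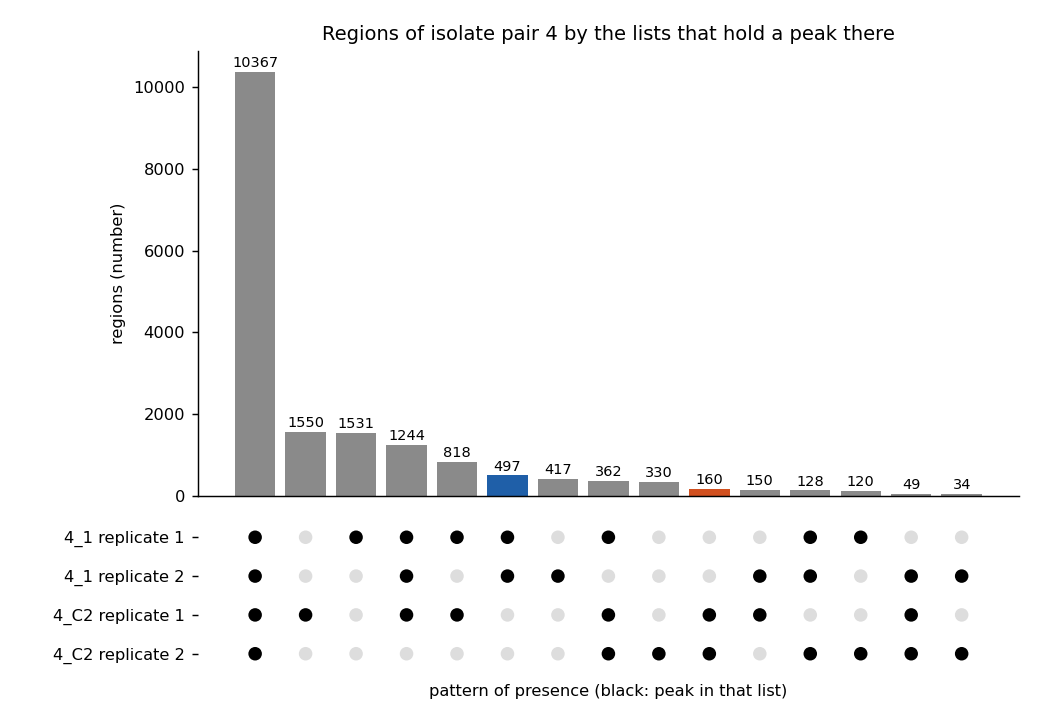
Number of merged regions of isolate pair 4 (bars, vertical axis) for each pattern of presence in the 4 lists (dots, black where the list holds a peak). The pattern lost in 4_C2 (blue) holds 497 regions and the pattern gained (orange) 160, against 10367 regions in all 4 lists and 818 in both replicate 1 lists.

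The 497 lost regions were 2.8% of all regions of the pair. Their median region length was 1432 bp, against 2427 bp for the regions in all 4 lists and 1218 to 1417.5 bp for the other patterns held by 2 lists. Promoters made up 54.7% of them (272 regions), 131 lay elsewhere inside genes and 94 outside genes. In the other patterns held by 2 lists, promoters made up 31.2% to 45.6%. The nearest peak of either 4_C2 list was a median of 28380 bp away, and over 10 kb away for 339 of them. In pair 6, 312 of the 497 (62.8%) held a peak in all 4 lists, where 75.9% of all regions of pair 4 did. No peak in any pair 6 list was found at 15 of them (3.02%, against 8.51% of all regions of pair 4). In pair 6, 19 of them (3.82%) were lost as well and 1 (0.201%) was gained, where 1.26% and 0.445% of all regions were. Of the regions held by all 4 lists of pair 4, only 4 (0.0386%) were lost in pair 6, which lowers the share over all regions. Of the gained regions, 4 (2.50%) were lost there. These overlaps were not tested. Leaving out a library makes the rule easier to meet: the count was 2060 without replicate 2 of 4_1, 1754 without replicate 1 of 4_C2 and 952 without replicate 1 of 4_1. Replicate 2 of 4_C2 was the shortest list, and with all lists cut to its length by keeping their widest peaks 382 regions were lost.

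The 160 gained regions were 0.901% of all regions. Their median length was 1417.5 bp, close to that of the lost regions, but fewer lay at promoters (50 regions, 31.2%) and 80 lay elsewhere inside genes. The nearest 4_1 peak was a median of 10502.5 bp away. In pair 6, 54 of them (33.8%) held a peak in all 4 lists and 35 (21.9%) in none, 4 (2.50%) were lost there and 1 (0.625%) was gained. Chromosome 11 held 45 of the 160, as described with the chromosomes below. Without replicate 2 of 4_C2 the count was 1717, without replicate 1 of 4_1 it was 527, and without replicate 1 of 4_C2 it was 509. With lists of equal length 216 regions were gained.

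Promoter peaks were lost at 250 genes, which is 1.94% of the 12860 genes with a promoter peak in at least 1 of the 4 lists. Without replicate 1 of 4_C2 the rule gave 1075 lost genes, and without replicate 2 of 4_1 it gave 674. The 10 lost genes with the longest covered regions included regulators of transcription and chromatin, enzymes and a replication factor, and no 4_C2 library had a covered base pair in any of their regions. Sp8, a zinc finger transcription factor of limb and forebrain development, had the longest (chr12:118846332-118850771). Its region was covered over 3744 and 4119 bp in the 4_1 libraries and 0 and 0 bp in the 4_C2 libraries. Both Gcn5fx/fx and Gcn5-/- libraries of pair 6 covered the Sp8 region (3664 and 4368 bp against 3105 and 3146 bp). Cbx7, which encodes a subunit of the Polycomb repressive complex, was covered over 3948 and 2192 bp in 4_1 and over 3948 bp, the full region, in each of the 4 pair 6 libraries. Covered lengths in pair 6 count only base pairs within the regions of pair 4.

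Grb10, an imprinted gene whose adaptor protein restrains insulin and growth factor signalling, stood out among these 10 because its peak was also absent in the null clone of pair 6. It was covered over 2583 and 3346 bp in 4_1 and over 1300 and 1351 bp in 6_1, and over 0 bp in both 4_C2 and both 6_C4 libraries. The nearest 4_C2 peak lay 212604 bp away. The other named regions were covered in all pair 6 libraries. H2bc9, a replication-dependent histone H2B gene that shares its region with the H3 gene H3c7, was covered over 2983 and 2608 bp in 4_1. Slc2a4, the insulin-responsive glucose transporter gene, was covered over 2230 and 2178 bp. Gstm1, a glutathione transferase gene, had 2295 and 2069 bp in the 4_1 libraries. At St3gal1, a sialyltransferase gene, the 4_1 values were 2815 and 1522 bp, and those of pair 6 were 2198 and 1898 bp in 6_1 and 2720 and 2510 bp in 6_C4. Cfap410, a gene of cilia, was covered over 2427 and 1896 bp, Nat14, in a region shared with Ssc5d, over 2153 and 1948 bp, and Pola1, the catalytic subunit gene of DNA polymerase alpha, over 2271 and 1781 bp. The plot of covered base pairs at named genes shows that the 4_1 replicates differed most at Cbx7 and St3gal1, while every 4_C2 value was 0.

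**Figure D2:**
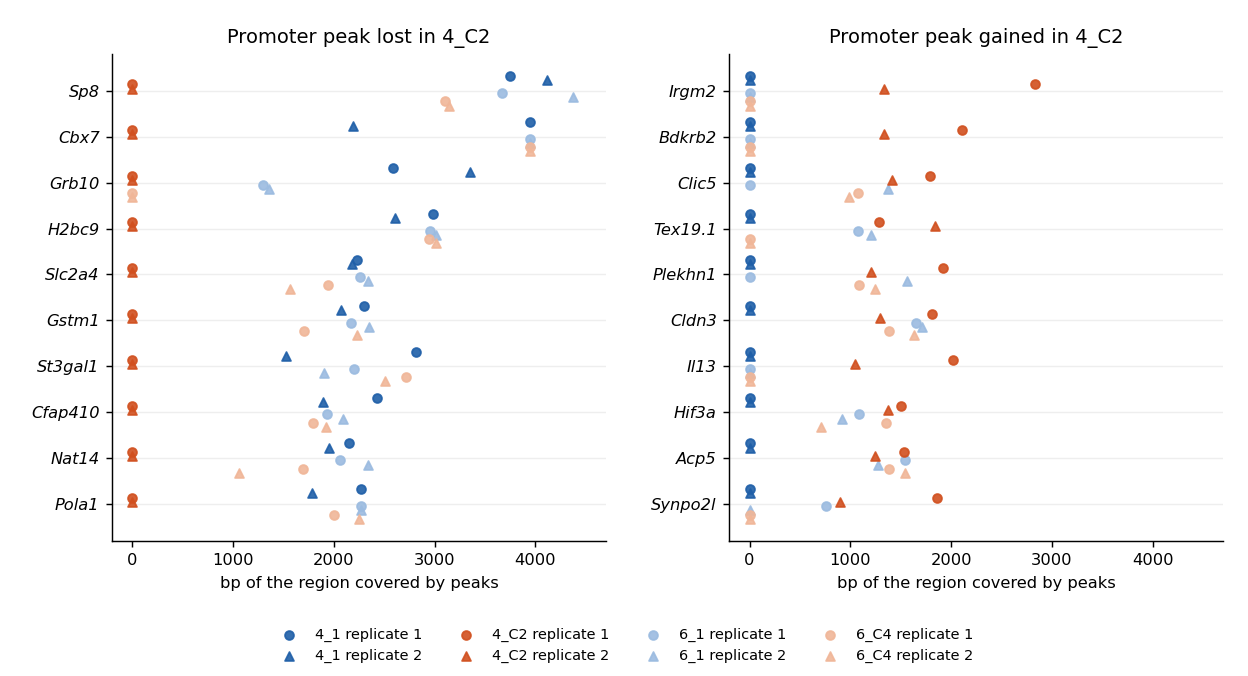
Base pairs of each gene's region covered by peaks (horizontal axis) in the 4 libraries of pair 4 and the 4 of pair 6, for the 10 lost genes (left) and 10 gained genes (right) with the longest covered regions. Values at 0 are absent peaks: both 4_C2 libraries are at 0 on the left and both 4_1 libraries on the right, by the rule that chose the genes, and the 6_C4 libraries are also at 0 at Grb10.

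Several lost genes encode regulators of germ layer and organ formation. In the list of primitive streak and mesoderm genes, 27 of 40 had a promoter peak in at least 1 list and 5 of those (18.5%) were lost, among them Eomes, Gsc, Tbx6 and Hand2. Eomes, a T-box factor needed for mesoderm and definitive endoderm, was covered over 1749 and 826 bp in 4_1. Gsc, the organizer homeobox gene, was covered over 1669 and 1367 bp. The paraxial mesoderm factor gene Tbx6 had 1617 and 1411 bp in 4_1, and Hand2, a heart and limb factor gene, had 1773 and 1223 bp. These 4 were at 0 bp in both 4_C2 libraries and had a peak in all 4 libraries of pair 6. Counted per library, the list had a promoter peak at 22 and 15 genes in 4_1 and at 16 and 11 genes in 4_C2, so the 2 clones overlapped.

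Among neuroectoderm genes, 5 of 34 with a peak (14.7%) were lost, among them Sox3, Pax2, Rfx4 and Pou3f2. Sox3, a SoxB1 factor gene of neural progenitors, was covered over 1984 and 961 bp in 4_1, and Pax2, a midbrain and kidney gene, over 1722 and 1281 bp. Both held peaks in all pair 6 libraries. Pou3f2, a neuronal POU factor gene, was covered over 1170 and 1431 bp in 4_1 and had a peak in only 1 pair 6 library, replicate 1 of 6_1. Rfx4, a winged helix factor gene of the neural tube, had 1232 and 1784 bp in 4_1. Numbers of neuroectoderm genes with a promoter peak were 32 and 26 in 4_1 and 22 and 17 in 4_C2, and here both 4_C2 values were below both 4_1 values. Over all genes the counts were 12350 and 11524 against 11950 and 10611.

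Cell adhesion and patterning lists held further lost genes. Of 18 cadherin and protocadherin genes with a peak, 4 (22.2%) were lost: Cdh6, Cdh7, Cdh20 and Pcdh17, with counts per library of 17 and 15 in 4_1 against 11 and 6 in 4_C2. Cdh6 was covered over 843 and 913 bp in 4_1, Cdh7 over 1188 and 1087 bp, Cdh20 over 1418 and 742 bp and Pcdh17 over 1129 and 941 bp. Hox clusters lost 2 of 17, Hoxa2 (1601 and 1714 bp in 4_1) and Hoxa5 (1209 and 1025 bp), which pattern the hindbrain and the axial skeleton. Trophoblast genes lost Eomes and Gata3 among 8, the endoderm list lost the pioneer factor gene Foxa1 (1526 and 1222 bp in 4_1) among 15, and the primed epiblast list lost Sox3 and the ligand gene Fgf15 among 17. Lefty1, an inhibitor of Nodal, was lost from 27 genes of Nodal and BMP signalling, with 1254 and 1031 bp in 4_1 and 1660 bp in each library of pair 6. Twist2 was the 1 lost gene of 9 fibroblast genes with a peak, Hdac8 the 1 of 30 other acetyltransferase and deacetylase genes, and Grb10 the 1 of 21 imprinted genes. The share lost over all genes with a peak was 1.94%.

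These counts moved when narrow peaks or single libraries were left out. With lists of equal length, made by dropping the narrowest peaks, 3 mesoderm, 2 neuroectoderm, 1 Hox and 1 cadherin gene were lost. With peaks of at least 1000 bp only, 2 cadherin genes were lost, and with RefSeq start sites only 3 neuroectoderm genes were. Without replicate 2 of 4_1, 8 mesoderm, 7 Hox and 10 neuroectoderm genes met the rule, and without replicate 1 of 4_C2, 9 neuroectoderm and 8 cadherin genes did. The part of list length and peak width in these counts was not tested. The plot by gene list sets each share beside that of all genes.

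**Figure D3:**
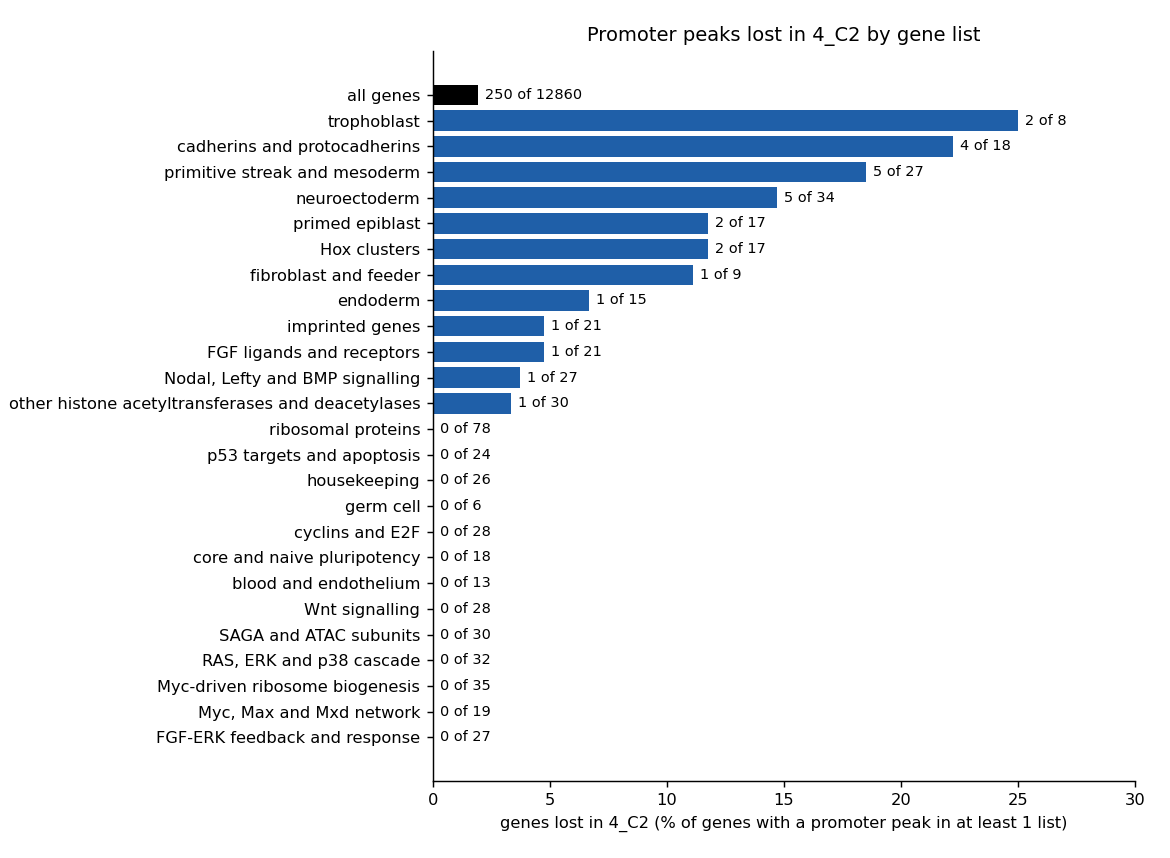
Share of genes with a promoter peak in at least 1 list that were lost in 4_C2 (horizontal axis, %), for all genes (black, 1.94%) and for 25 gene lists (blue), with the counts at the bars. The highest share rests on 2 of 8 trophoblast genes, and 13 lists had no lost gene.

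No gene was lost among 18 core and naive pluripotency genes with a peak, 27 FGF-ERK feedback genes, 19 genes of the Myc, Max and Mxd network, 35 genes of Myc-driven ribosome biogenesis, 30 SAGA and ATAC subunits, 32 genes of the RAS, ERK and p38 cascade, 28 Wnt genes, 78 ribosomal proteins, 26 housekeeping genes, 24 p53 targets and 28 cyclin and E2F genes. Of all 12860 genes with a peak, 250 (1.94%) were lost, a share that gives few or no lost genes in lists of these sizes. All 30 SAGA and ATAC subunit genes and all 78 ribosomal protein genes had a promoter peak in each of the 4 lists. Only 8 of the 18 pluripotency genes did, and 8 genes of that list had fewer 4_C2 than 4_1 libraries with a peak while none had more. Of all 12860 genes with a peak, 79.3% had one in all 4 lists, 1661 had fewer 4_C2 than 4_1 libraries with a peak and 540 had more. Pluripotency genes with a promoter peak numbered 18 and 12 in 4_1 against 12 and 10 in 4_C2, and 21 to 25 in the libraries of pair 6.

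Promoter peaks were gained at 58 genes, 0.451% of those with a peak, in only 40 regions. Of the 58, 15 are clustered gamma protocadherin genes that share a region. Where a gene had no RefSeq start site, a peak at either annotated end counted. A region shared by several genes can thus lie at a common gene end and need not be a promoter. Without replicate 2 of 4_C2 the count was 305, without replicate 1 of 4_1 it was 234 and without replicate 1 of 4_C2 it was 90. With lists of equal length 105 genes were gained, while 33 were gained with peaks of at least 1000 bp and 33 with RefSeq start sites only. Irgm2, an interferon-inducible GTPase gene, had the longest gained region (chr11:58213871-58216703), with 2833 and 1330 bp in the 4_C2 libraries and 0 bp in both 4_1 and all 4 pair 6 libraries. Bdkrb2, the bradykinin B2 receptor gene, was covered over 2105 and 1330 bp in 4_C2, and Il13, a cytokine gene, over 2019 and 1051 bp. These 2 regions also had no peak in pair 6, and the Il13 region reached only 88 and 32 bp into the start window.

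Several gained genes had peaks elsewhere in the series. Cldn3, a tight junction gene, was covered over 1809 and 1293 bp in 4_C2 and over 1389 to 1711 bp in the 4 libraries of pair 6. Hif3a, a hypoxia-inducible factor gene (1503 and 1379 bp in 4_C2), and Acp5, the acid phosphatase gene of osteoclasts (1530 and 1244 bp), likewise had a peak in every pair 6 library. Clic5, a chloride intracellular channel gene (1791 and 1411 bp), and Plekhn1 (1916 and 1204 bp) had one in 3 of them. Synpo2l, an actin-associated gene of muscle, was covered over 1865 and 898 bp in 4_C2, but a 4_1 peak lay only 103 bp from its region. Tex19.1, a germ cell gene that acts against transposons, was covered over 1284 and 1837 bp in 4_C2, and in pair 6 over 1075 and 1202 bp in 6_1 and 0 bp in 6_C4. It and the blood transcription factor gene Nfe2 (1035 and 900 bp in 4_C2) were the 2 gained genes of the 25 lists.

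Of the 250 lost genes, 11 (4.40%) were also lost in pair 6, where 0.677% of the 12860 genes with a promoter peak in pair 4 were. The 12860 are a loose comparison, since 79.3% of them had a peak in all 4 lists of pair 4. Regions held by all 4 lists were rarely lost in pair 6 (4 of 10367). The overlap of lost genes was not tested. The 11 are 7.28% of the 151 genes lost in pair 6. Of the 250, 175 (70.0%) had a promoter peak in all 4 lists of pair 6 and 5 in none of them, where 91.7% of the 12860 genes had one in all 4. The genes lost in both pairs included Ackr3, Cdh7, Gata3, Grb10, Hdac8, Pcdh17, Rfx4, Rtn4rl2, Tha1 and Vgll2. Ackr3, an atypical chemokine receptor gene, was covered over 1026 and 1840 bp in 4_1 and 1222 and 1840 bp in 6_1. Gata3 is a zinc finger factor gene whose start window was covered over 1110 and 400 bp in 4_1. Rtn4rl2, a Nogo receptor relative, had 1781 and 1038 bp in 4_1 and 1781 and 1690 bp in 6_1. In all 11 the promoter windows of both null clones were at 0 bp. None of the 250 lost genes was gained in pair 6, and 2 of the 58 gained genes were lost there.

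At Kat2a itself the null libraries still held a peak. Its region (chr11:100711377-100715040), across the start site and the neighbouring gene Hspb9, was covered over 3522 and 3416 bp in 4_1 and 3087 and 2975 bp in 4_C2. The log2 change in covered length, centred on each library's median, was -0.05 ± 0.14 (SE, limma adjusted p = 0.948). A peak at the start site does not check the genotype, since the sources used here do not give the deleted exons. Kat2b was covered over 2971 and 2430 bp in 4_1 and 3635 and 2619 bp in 4_C2, a log2 change of 0.34 ± 0.15 (limma adjusted p = 0.715). The clones overlapped in base pairs at Kat2b, but not after centring (0.42 and 0.22 in 4_1, 0.77 and 0.56 in 4_C2).

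Myc, which encodes c-Myc, had a promoter peak in both 4_1 libraries and in 1 of 2 4_C2 libraries. Its region was covered over 3577 and 2145 bp in 4_1 and over 1383 and 0 bp in 4_C2. In pair 6 the Myc region was covered over 3577 bp in 3 libraries and 2676 bp in replicate 2 of 6_C4. Mycn was covered over 5614 and 4961 bp in 4_1 and 4450 and 3581 bp in 4_C2 (log2 change -0.26 ± 0.13, limma adjusted p = 0.723). Pou5f1 and Nanog, core pluripotency genes, also lacked a peak in 1 4_C2 library each: Pou5f1 had 1989 and 1141 bp in 4_1 and 1034 and 0 bp in 4_C2, and Nanog 1925 and 1592 bp against 0 and 929 bp. T, the brachyury gene of mesoderm, had a peak in replicate 1 of each clone only.

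FGF genes differed in direction, and none of those tested passed. Fgf15, a ligand gene active in the early neural tube, was the 1 lost of 21 FGF ligand and receptor genes with a peak, with 2389 and 1032 bp in 4_1 and at least 1391 bp in each pair 6 library. Fgf5, a ligand gene and epiblast marker, was covered over 1307 and 914 bp in 4_1 and 1632 and 1325 bp in 4_C2, a log2 change of 0.57 ± 0.18 (limma adjusted p = 0.583). At Fgf8 a peak was called in 1 4_1 library (1364 bp) and both 4_C2 libraries (1626 and 1367 bp), and Fgf4 in replicate 1 of each clone. The receptor gene Fgfr1 was covered over 3293 and 2971 bp in 4_1 and 2574 and 1969 bp in 4_C2 (log2 change -0.33 ± 0.13, limma adjusted p = 0.672). Spry2 and Dusp6, which encode feedback inhibitors of this pathway, had log2 changes of -0.21 ± 0.13 and -0.13 ± 0.19 (limma adjusted p = 0.752 and 0.907).

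Covered length was compared over the 10367 regions in all 4 lists, as log2 values from which each library's own median was subtracted, which took out a mean difference of -0.14 between the clones. With limma and Benjamini-Hochberg adjustment, 0 regions (0.0%) were narrower and 0 (0.0%) wider in 4_C2. The smallest limma adjusted p was 0.201, and at an unadjusted p under 0.05 there were 352 narrower and 365 wider regions. Counted by overlap alone, both 4_C2 values lay below both 4_1 values in 1623 regions (15.7%) and above them in 2305 (22.2%). Without centring these counts were 3359 and 553, so the split between directions depends on the scaling. A limma test of whether the change differed between pair 4 and pair 6 over 10171 regions called 0 (0.0%) in either direction. At an unadjusted limma p under 0.05, the change was lower in pair 6 than in pair 4 at 397 regions and higher at 284.

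Of the 5 narrower regions at genes with the lowest p, 4 are given as values, since none passed. Gins2, a subunit gene of the replicative helicase, had 2931 and 2189 bp against 1119 and 943 bp. Gpx4, which encodes a peroxidase that protects lipids, was covered over 5346 and 4164 bp in 4_1 and 2385 and 1658 bp in 4_C2. Ptprs, a receptor phosphatase gene, had 2970 and 2974 bp against 1516 and 1350 bp, and the region shared by Smcr8 and the topoisomerase gene Top3a had 7279 and 7527 bp against 3847 and 3446 bp. In each of the 4, the 4_C2 libraries lay below the 4_1 libraries without overlap. Their log2 changes ran from -1.16 to -0.88, with limma adjusted p between 0.201 and 0.215.

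Igtp, an interferon-inducible GTPase gene, had the largest change among the 5 wider regions, from 1002 and 606 bp in 4_1 to 3313 and 2485 bp in 4_C2. Its log2 change was 2.02 ± 0.22 (SE, limma adjusted p = 0.201), and without replicate 1 of 4_1 it was 2.34 with a limma adjusted p of 0.0245, the 1 region called wider in any fit. That fit has a single 4_1 library, which is assumed to vary like the 4_C2 libraries. In pair 6 it was covered over 0 bp in both 6_1 libraries and over 962 and 1124 bp in 6_C4. Gbp2, a guanylate-binding protein gene that interferon also induces, was covered over 1544 and 1559 bp in 4_1 and 2947 and 3072 bp in 4_C2, and had no peak in pair 6. Prr14l had 1873 and 1778 bp against 3251 and 2953 bp. Sp2, a zinc finger factor gene, had 1768 and 2063 bp against 3863 and 4181 bp, and Bahcc1, a chromatin protein gene, 2819 and 2706 bp against 4844 and 5222 bp. Igtp, Sp2 and Bahcc1 lie on chromosome 11. The plot of covered length at these regions shows how far apart the 2 clones lay relative to their replicates. The regions were chosen by low p, so a wide separation there follows from the choice.

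**Figure D4:**
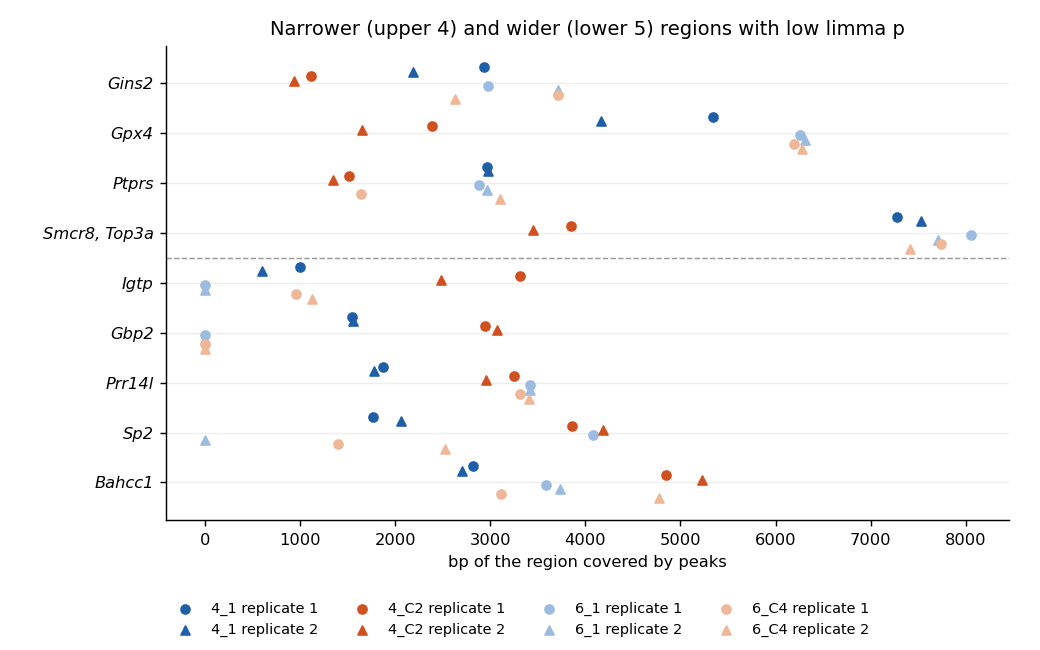
Base pairs covered by peaks (horizontal axis) in each library of pair 4 and pair 6 at 4 narrower and 5 wider gene regions among those with the lowest limma p. The 4_1 (dark blue) and 4_C2 (dark orange) libraries do not overlap at any of the 9, such as 1002 and 606 bp against 3313 and 2485 bp at Igtp. That separation follows from the choice by low p, and none passed the adjusted threshold.

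Developmental genes kept in all 4 lists had width changes of both signs, and none passed the limma threshold. Of 16 tested neuroectoderm genes, 9 had a log2 change below 0 (median -0.08), with 5 narrower and 3 wider (Dll1, Nes and Pou3f1) without overlap after centring. In the mesoderm list 4 of 9 were below 0 (median 0.09), with 3 narrower and 1 wider, and in the Hox clusters 4 of 6 (median -0.22), with 1 narrower and 0 wider. Among all 10237 genes with a tested region, 1659 were narrower and 2125 wider without overlap after centring. Gbx2, a hindbrain and midbrain boundary gene, was covered over 5163 and 3329 bp in 4_1 and 1797 and 1487 bp in 4_C2 (log2 change -1.20 ± 0.19, limma adjusted p = 0.215). Nkx6-1, a ventral neural tube gene, had 2114 and 1896 bp against 1083 and 920 bp (-0.86 ± 0.14, limma adjusted p = 0.222). Hoxb2 had 4013 and 3480 bp against 2371 and 1403 bp, and the ETS factor gene Etv1, a target of FGF signalling, 3263 and 2834 bp against 1802 and 685 bp. In the other direction, Hoxb4, where the clones overlapped, had a log2 change of 0.60 and the mesenchyme factor gene Foxc2, with 1010 and 841 bp against 1075 and 1028 bp, one of 0.33 (limma adjusted p = 0.749 and 0.724). Among pluripotency genes, Tbx3 had 3660 and 2848 bp against 2171 and 1034 bp, Klf2 4562 and 2811 bp against 2635 and 1721 bp, and Lin28a 3543 and 3661 bp against 2337 and 2475 bp. The median log2 change of the 7 tested pluripotency genes was -0.54, and all 7 were below 0. For all 10237 genes with a tested region the median was 0.02, with 4740 below 0. In ribosomal protein genes the median was -0.05 over 78, in SAGA and ATAC subunits 0.00 over 30 and in Myc-driven ribosome biogenesis -0.03 over 33. Usp22, the SAGA deubiquitinase gene, was covered over 6314 bp in replicate 1 of 4_C2 and over 2667 to 2744 bp in the other 3 libraries.

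Peaks on chromosome 11 were wider, relative to the library median, in both 4_C2 libraries than in both 4_1 libraries. Over its 1009 regions in all 4 lists, the median log2 covered length, centred as above, was 0.20 and 0.19 in the 4_1 libraries and 0.35 and 0.38 in the 4_C2 libraries. All 4 values were thus above 0. Of these 1009 regions, 79.1% had a log2 change above 0, against 52.5% of regions on all other chromosomes. At an unadjusted limma p under 0.05, 129 (12.8%) were wider and 13 narrower. On all other chromosomes, 236 of 9358 regions (2.52%) were wider and 339 narrower at that p. All 12 stretches of 10 Mb with at least 20 regions in all 4 lists had a median change above 0, from 0.07 to 0.19. Without centring, both 4_C2 values lay above both 4_1 values in 155 of the 1009 regions and below them in 155. Those counts were 553 and 3359 over all 10367 regions. Chromosome 11 held 10.1% and 10.1% of peaks in 4_1 and 12.1% and 11.1% in 4_C2 (exact permutation p = 0.333, the smallest possible), and 11.7% and 11.6% of covered base pairs against 14.7% and 13.9%. In pair 6 it held 8.59% to 9.01% of peaks. Chromosome 11 held 12.4% of all regions of the pair. The 45 gained regions there (2.04% of its regions) were 28.1% of all gained regions, its 50 lost regions (2.27%) were 10.1% of all lost regions, and without that chromosome 115 gained regions remained in 15550 (0.740%). The input libraries were not analysed here, and the number of copies of chromosome 11 in each clone was not tested.

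On chromosomes 8 and 1 both 4_C2 medians lay furthest below both 4_1 medians. The same order, with smaller gaps, was seen on chromosomes 6, 13 and 14, and the reverse on chromosomes 15 and 16 as well as 11. On chromosome 8, over 567 regions, the medians were 0.09 and 0.07 in 4_1 and -0.05 and -0.03 in 4_C2. There, 40 regions were narrower and 7 wider at an unadjusted limma p under 0.05, beside 352 and 365 over all 10367 regions. The median change on chromosome 8 was below 0 in 11 of 12 stretches of 10 Mb. Chromosome 8 held 42 lost regions among 980 (4.29%), beside 2.8% over all chromosomes, 4.05% on chromosome 13 and 4.86% on chromosome X. On chromosome 1, over 585 regions, the medians were 0.08 and 0.08 in 4_1 and -0.02 and -0.07 in 4_C2, and the change was below 0 in 12 of 12 stretches. Among the genes with the longest covered regions, the lost Grb10 and Slc2a4 and the gained Irgm2, Il13 and Tex19.1 lie on chromosome 11. Hand2 lies on chromosome 8, and Cdh7, Twist2 and Lefty1 lie on chromosome 1. The plot of medians by chromosome shows chromosome 11 apart from the rest of the autosomes and chromosome X below every autosome in all 4 libraries. Chromosome Y, with 4 such regions, is not plotted, and its medians ran from -0.55 to -0.43.

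**Figure D5:**
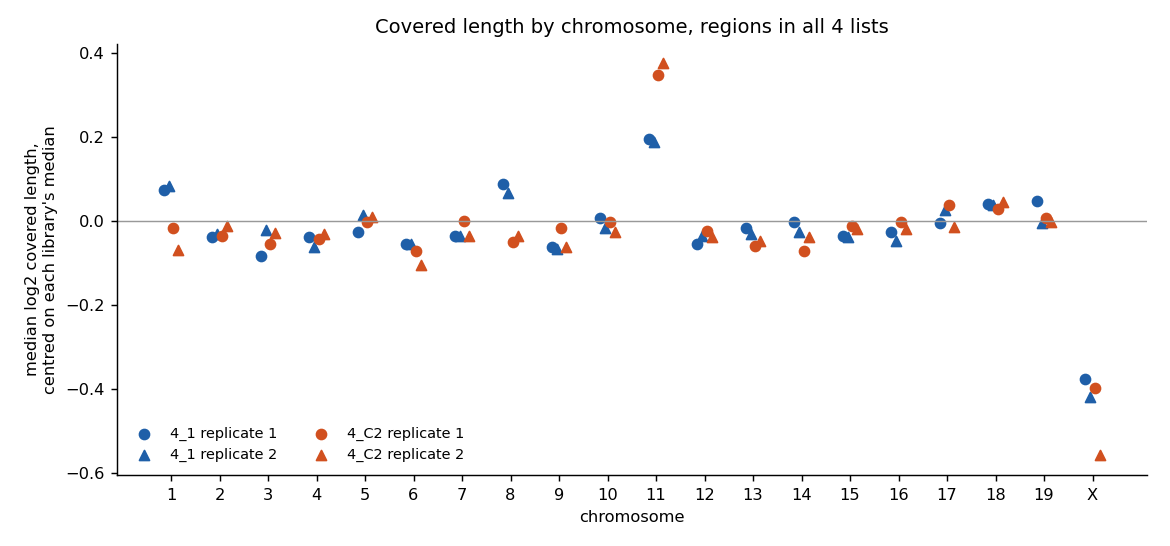
Median log2 covered length of regions in all 4 lists, centred on each library's median (vertical axis), by chromosome other than Y, with 1 point per library of pair 4. On chromosome 11 the 4_C2 libraries (0.35 and 0.38) lie above the 4_1 libraries (0.20 and 0.19), and on chromosomes 1 and 8 they lie below. With smaller gaps, they also lie below on chromosomes 6, 13 and 14 and above on chromosomes 15 and 16.

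Of the cell type markers checked, those of the epiblast were the most completely marked. All 4 epiblast markers (Fgf5, Otx2, Dnmt3b and Pou3f1) had a peak in both 4_1 libraries, and 4 and 3 of them did in 4_C2. Of 5 pluripotency markers, 4 and 3 had one in 4_1 and 2 and 2 in 4_C2, with Esrrb at 0 in all 4. Mesoderm markers were marked at 5 and 1 of 5 genes in 4_1 and 3 and 1 in 4_C2, endoderm at 3 and 0 of 4 against 1 and 0, and neuroectoderm at 2 and 2 of 4 against 2 and 1. Fibroblast and feeder markers had 1 and 0 of 5 in 4_1 and none in 4_C2, with Col1a1, Thy1, Postn and Lum at 0 in all 4 libraries. Blood markers had 2 of 4 in every library. Mesoderm and endoderm counts were higher in replicate 1 than in replicate 2 of both clones, and the part of this in the lost mesoderm genes was not tested.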

How the data were processed

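H3K9ac was measured by ChIP-seq in 4 libraries of isolate pair 4, 2 per clone, and 4 of pair 6. The authors deposited 1 peak list per library, with coordinates only (chromosome, start and end). Alignment and peak calling involved Bowtie 1.1.2, MACS 1.4.2 and mm10, per the submitters' processing notes. For the peak threshold, the control library and filters, values were not given in the sources used here. Depth is unknown, and peak number and width can depend on it. The 16 total H3 and input samples were not analysed here.

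Peaks overlapping by 1 bp were merged over the 4 lists of pair 4. Promoter windows reached 1000 bp either side of the RefSeq start sites (GRCm38.p6) of 17492 protein-coding genes, or of both annotated ends for 4408 genes without one. Of 754 entries in 25 gene lists, 750 matched. The test of covered length used limma 3.58.1 (R 4.3.3, trend, Benjamini-Hochberg adjustment, threshold 0.05) without a replicate block, and single values per library with exact permutation tests over 6 assignments. Peak merging was checked on random intervals, and the limma fit on simulated widths with the same spread in every region. The exact permutation tests were not checked in this way. Other steps used Python 3.11.15, pandas 2.3.3, numpy 2.4.6, SciPy 1.17.1 and matplotlib 3.10.9.

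Named genes were the 10 lost and 10 gained genes with the longest mean covered region, the 5 tested regions per direction with the lowest p, up to 6 members of a list (lost or gained first, then by width change) and 14 single genes. Igtp, Gbp2 and other genes of the closing list, genes lost in both pairs, and Hoxb4, Foxc2, Dll1, Nes and Pou3f1 were named for their values. Some genes that the rule takes are not reported here. The members, lists and tests were chosen with earlier results of these data known. Alternatives were lists of equal length, merging within 500 bp, a minimum cover of 25% of a region or 500 bp of a window, peaks of at least 1000 bp, each library left out, no centring, no trend, a replicate block, and regions held by 2 or more lists after adding a pseudocount of 100 bp. Genes with a RefSeq start site only, and regions without chromosome 11, were added after seeing the data.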

Additional observations from a re-analysis of the deposited data

Results flagged for a closer look

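For 8 values, the 2 null libraries lay on one side of the 2 floxed libraries in pair 4 and on the other side in pair 6, with no overlap in either pair. Except where a test is named, that difference between pairs was not tested. The 8 values were picked for this pattern from a larger set that included other chromosomes and other named genes. With 2 libraries a clone, some values of a larger set can show it by chance. How many chance alone would give was not worked out, so the count of 8 is a description only. St3gal1, Tex19.1, Cldn3 and Prr14l were chosen for their values in pair 4, so their separation there follows from that choice and only the pair 6 values are independent of it. Over regions in all 8 lists, the null minus floxed difference in the median centred log2 covered length was -0.12 in pair 4 and 0.01 in pair 6 on chromosome 1, and -0.0332 and 0.0106 on chromosome 6. It was -0.12 and 0.02 on chromosome 8, and 0.16 and -0.03 on chromosome 11. In covered base pairs, the mean difference at St3gal1 was -2168 bp in pair 4 and 567 bp in pair 6. At Tex19.1 it was 1560 bp and -1138 bp, and at Cldn3 1551 bp and -174 bp. At Prr14l it was 1276 bp and -56.5 bp, and the limma interaction of genotype and pair there had an adjusted p of 0.539.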

How the results depend on the processing

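Leaving out 1 library in turn gave 628 to 2060 lost regions, 209 to 1717 gained regions, 328 to 1075 lost genes and 85 to 305 gained genes, since the rule then needs 1 library of a clone. The difference in peak number (-793.5 with all libraries) ran from -2246.5 to 659.5 and was 234 without replicate 1 of 4_1, and that in covered length ran from -7.26 to 1.09 Mb. Regions called wider ran from 0 to 1. Gained genes numbered 105 with lists of equal length, 33 with peaks of at least 1000 bp and 33 with RefSeq start sites only (fewer genes enter the last). The cause was not tested. With a library left out, the log2 change at Dusp6 ran from -0.37 to 0.11 (without replicate 2 of 4_1) and at Kat2a from -0.158 to 0.0511 (without replicate 1 of 4_C2). The other 15 gene regions followed kept their direction in each setting run. A replicate block left 0 narrower and 0 wider regions by limma (422 and 409 at an unadjusted p under 0.05). The peak number difference of -793.5 had an exact permutation p of 0.5 within numbers, the smallest possible there. Same-numbered libraries deviated together with a correlation of 0.0911 over regions; with 2 pairs this does not show pairing. With depth unknown and 2 libraries a clone, how near an absent peak was to the calling threshold is not known.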

Other observations

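Genes of the interferon response were listed after Irgm2, Igtp and Gbp2 had been seen, so their counts are a description that supports nothing. Of 57 entries 55 matched, and 34 had a promoter peak in at least 1 list of pair 4. Irgm2, the helicase gene Ddx60 and the cytokine gene Il15 were gained, and Irf8, a transcription factor gene of immune cells, was lost. Ddx60 was covered over 1330 and 917 bp and Il15 over 1166 and 914 bp in 4_C2, and both were at 0 bp in 4_1 and in pair 6. Irf1, a transcription factor gene, was covered over 3288 and 4299 bp in 4_1 and 5554 and 6689 bp in 4_C2 (log2 change 0.84 ± 0.23, SE, limma adjusted p = 0.53). Irgm1 had 1916 and 1615 bp against 2798 and 1822 bp, and the immunoproteasome gene Psmb8 1085 and 1063 bp against 1335 and 1411 bp. Both 4_C2 values lay above both 4_1 values, after centring, in 13 of the 25 genes with a tested region and below them in 1. Among all 10237 genes tested, these numbers were 2125 and 1659. The median log2 change of those 25 was 0.23, beside 0.02 over all genes tested. Igtp, Irgm1, Irgm2 and Irf1 lie on chromosome 11, whose median change was 0.14.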
